A study of Medicago truncatula with 24 samples.

Results

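The embryos described here were all collected 17 days after pollination, at S2 from seeds produced at 26°C by day and 24°C by night and at S1 from seeds produced at 20°C and 18°C. They came from *Medicago truncatula* line A17, a model legume. S1 is the stage before and S2 the stage after the acquisition of desiccation tolerance, the ability of the embryo to survive drying. At 20°C, S2 was collected at 26 days, and at 26°C, S1 was collected at 14 days. Age is thus equal in the comparison, while temperature and stage differ together and cannot be told apart. All plants were grown at 20°C until flowering, and those of the 26°C group were then moved. The labels name the same harvest years for every library, and which year a library came from is not given.

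Members were chosen by age from the labels and the design text. They are 4 IP libraries of 24 libraries in the series, and 4 of its 12 peak lists. For H3K27me3 the lists hold 5321 peaks in S2 at 26°C and 4754 in S1 at 20°C, of 31178 peaks in all lists of that mark. For H3ac they hold 570 peaks in S2 at 26°C and 4488 in S1 at 20°C, of 6875. Each list comes from 1 library of pooled whole embryos, called against its own INPUT library, although the series record speaks of 2 replicates for H3ac. No difference below has a replicate check, and no p-value is given. A mark held by few cells and a weak mark held by many cannot be told apart in whole embryos.

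Histone H3 is trimethylated on lysine 27 by Polycomb group complexes. In plants this mark, H3K27me3, typically spreads over whole genes and their flanks and is found on genes kept silent, many of them developmental regulators. Acetylation of the H3 tail (H3ac, detected here with a pan-acetyl antibody) loosens the packing of DNA and is typically found near the starts of transcribed genes. Seed maturation is a period in which embryos switch large sets of genes on and off while they store reserves and prepare to dry.

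Each peak has a position (assembly MtrunA17r5.0), a fold enrichment, which is the IP signal divided by the INPUT signal, and p-values and q-values as −log10. The broad format used for H3K27me3 averages them along the peak, while the narrow format used for H3ac takes them at the summit, so fold enrichments of the marks are not on 1 scale. The lists do not state how many reads lay behind them. In the sample table of the study the H3K27me3 IP libraries of both groups held nearly the same number of reads, whereas for H3ac the INPUT library of S1 at 20°C was several times deeper than that of S2 at 26°C and the IP library was shallower. The part of these depths in the H3ac results was not tested.

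At equal age the H3K27me3 lists as deposited were close in size. Over all sequences they covered 8.60 Mb in S2 at 26°C and 8.01 Mb in S1 at 20°C. Their peaks on chromosomes 1 to 8 covered 1.88% and 1.79% of those chromosomes. The log2 ratio of S2 at 26°C to S1 at 20°C was 0.16 for the number of peaks and 0.10 for the covered length. The ratio of peak number depended on the threshold, at 0.70 with −log10 p of at least 5 and 0.01 with a fold enrichment of at least 3. The median peak was 456 bp long in S2 at 26°C and 428 bp in S1 at 20°C, and the median fold enrichment was 3.89 and 3.57. The peak number per Mb ranged over the 8 chromosomes from 11.4 to 13.5 in S2 at 26°C and from 10.3 to 11.9 in S1 at 20°C, and it was higher in S2 at 26°C on every chromosome. The covered length did not follow on all of them. Its log2 ratio ran from −0.14 on chromosome 2 to 0.29 on chromosome 6.

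The H3ac lists, in contrast, differed in size and in make-up. The log2 ratio of S2 at 26°C to S1 at 20°C was −2.98 for the number of peaks but −0.53 for the covered length, at 2.61 Mb in S2 at 26°C and 3.76 Mb in S1 at 20°C. A q-value of at most 0.05 was reached by 47.7% of the H3ac peaks of S2 at 26°C and 41.3% of those of S1 at 20°C. When −log10 p started from 5, the H3ac peaks numbered 168 and 994, and their length of 1.79 Mb in S2 at 26°C and 1.70 Mb in S1 at 20°C no longer showed the difference. With the strongest 570 peaks of each list the direction turned, with 2.61 Mb in S2 at 26°C and 1.36 Mb in S1 at 20°C. The median H3ac peak was 1792 bp long in S2 at 26°C and 389 bp in S1 at 20°C. Chromosome 5 had the fewest H3ac peaks per Mb in both, 0.402 in S2 at 26°C and 9.19 in S1 at 20°C. The highest densities were 1.85 per Mb on chromosome 7 in S2 at 26°C and 10.7 per Mb in S1 at 20°C. Relative to their level, though not in peaks per Mb, the densities thus varied more among chromosomes in S2 at 26°C. They rested there on few peaks, with 18 on chromosome 5.

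Most of the difference in H3ac lay in short peaks. Peaks of less than 500 bp numbered 0 in S2 at 26°C and 3321 in S1 at 20°C, and those of 500 to under 1000 bp numbered 180 and 886. Peaks of 1000 to under 5000 bp were more numerous in S2 at 26°C, with 273 against 177, as were those of 5000 bp or more, with 117 against 104. The shortest H3ac peak was 509 bp in S2 at 26°C and 315 bp in S1 at 20°C. The part of this lower limit in the counts of short peaks was not tested. In H3K27me3, peaks under 500 bp made up 55.9% of the list in S2 at 26°C and 58.6% in S1 at 20°C. Peaks of 5000 bp or more were 7.74% and 9.68% of the lists but held 59.3% and 62.9% of the covered length.

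**Figure D1:**
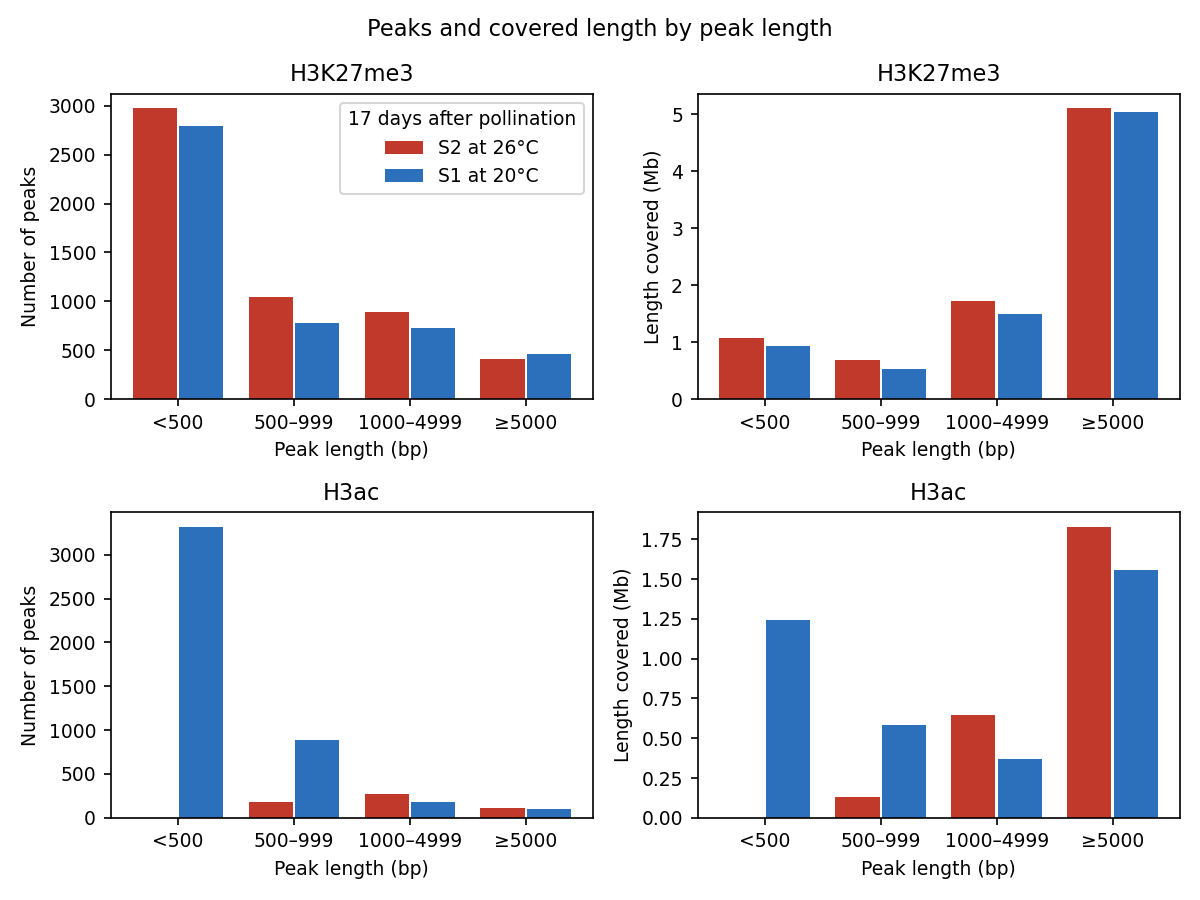
Number of peaks (left) and length covered in Mb (right) by peak length in bp, for H3K27me3 (top) and H3ac (bottom), with bars for S2 at 26°C and S1 at 20°C, 1 list each. The H3K27me3 bars are close in every class, whereas H3ac peaks under 500 bp number 0 in S2 at 26°C and 3321 in S1 at 20°C.

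To see whether equal age went with equal places, sharing was defined as an overlap of 1 bp or more with a peak of the other list. Of the H3K27me3 peaks, 11.6% of S2 at 26°C (618 of 5321, exact 95% binomial interval 10.8% to 12.5%) and 14.8% of S1 at 20°C (703 of 4754, 13.8% to 15.8%) were shared. By length, 28.8% of S2 at 26°C and 31.0% of S1 at 20°C lay under a peak of the other list. Of the H3ac peaks, 28.2% of S2 at 26°C (24.6% to 32.1%) and 4.19% of S1 at 20°C (3.62% to 4.82%) were shared, and by length 48.0% and 33.3%. The H3ac peaks on chromosomes 1 to 8 covered 0.552% of those chromosomes in S2 at 26°C and 0.806% in S1 at 20°C. The intervals are Clopper-Pearson intervals over peaks and cover counting error only. With the same number of H3ac peaks in both lists, the strongest 570, 10.9% of S2 at 26°C and 10.5% of S1 at 20°C were shared.

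Sharing grew with peak length in all 4 lists, and a longer peak also has more room to touch another. Among H3K27me3 peaks under 500 bp, 3.53% of S2 at 26°C and 5.88% of S1 at 20°C were shared, against 57.3% and 50.9% of the peaks of 5000 bp or more. Among H3ac peaks of 5000 bp or more, 59.8% of S2 at 26°C and 68.3% of S1 at 20°C were shared. Of the 3321 short H3ac peaks of S1 at 20°C, 38 were, or 1.14% (0.811% to 1.57%). Measured in bp, 42.4% of the length in long H3K27me3 peaks of S2 at 26°C was shared and 2.87% of that in peaks under 500 bp. In S1 at 20°C the values were 41.1% and 4.96%.

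**Figure D2:**
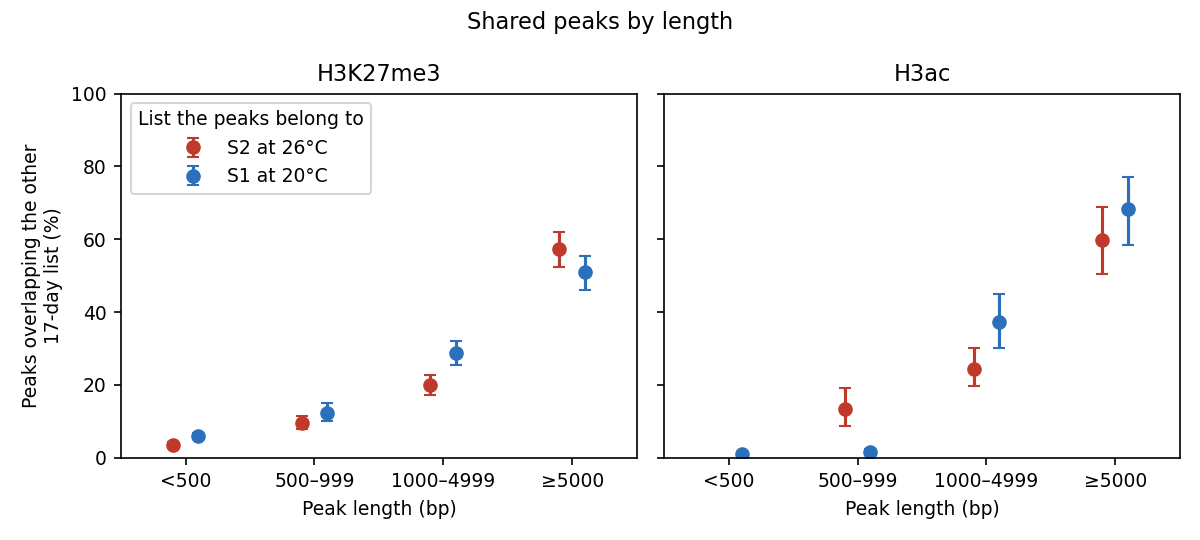
Share of the peaks of each 17-day list that overlapped the other list of the same mark by at least 1 bp, in percent, by peak length in bp, with exact 95% binomial intervals as bars. In both marks the share is highest among peaks of 5000 bp or more, between 50.9% and 68.3%, and S2 at 26°C has no H3ac point under 500 bp because it has no such peak.

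Shared and other H3K27me3 peaks had like median fold enrichments over the whole lists. In S2 at 26°C the median fold enrichment was 3.87 for shared and 3.89 for other peaks, and in S1 at 20°C 3.53 and 3.58. Among peaks of 5000 bp or more the shared ones were higher, with 4.17 and 3.55 in S2 at 26°C and 4.57 and 4.15 in S1 at 20°C, and over all peaks so was the median −log10 p, with 5.29 and 4.84 in S2 at 26°C and 4.54 and 4.21 in S1 at 20°C. Their lengths did differ, with medians of 2418 and 430 bp in S2 at 26°C and 1577 and 397 bp in S1 at 20°C. Few of the peaks that were not shared lay close to a peak of the other list. What scattered peaks would give was not computed, so this is not a trait of these peaks. The nearest peak of the other list lay at a median distance of 32.6 kb from those of S2 at 26°C and 28.1 kb from those of S1 at 20°C, and 2.47% and 3.04% of them had one within 1 kb.

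When both H3K27me3 lists were joined, they made 9334 separate places, of which 580 (6.21%) were in both, 4703 in S2 at 26°C only and 4051 in S1 at 20°C only. In the 580 shared places the length under peaks was greater in S2 at 26°C in 342 and in S1 at 20°C in 238, with a median log2 ratio of 0.15. The outer ends of the peaks differed by a median of 602 bp on the left and 658 bp on the right. In 64 places both ends lay within 200 bp of each other. In the 157 shared places with 5000 bp or more in each list, the ends differed by 1076 and 1213 bp, and 78.2% of the length of S2 at 26°C and 86.7% of that of S1 at 20°C was common to both. Places long in 1 list only do not enter this count.

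The joined H3ac lists made 4845 places, with 136 (2.81%) in both, 409 in S2 at 26°C only and 4300 in S1 at 20°C only. The 52 shared H3ac places of 5000 bp or more in each list had 84.9% of the length of S2 at 26°C and 91.5% of that of S1 at 20°C in common. As a description across places, Spearman's rho between the lengths in both lists was 0.525 over the 580 H3K27me3 places and 0.672 over the 136 H3ac places. For the highest fold enrichment in a place it was 0.333 and 0.0983. Places of 1 library share its depth and INPUT, and they are not replicates.

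**Figure D3:**
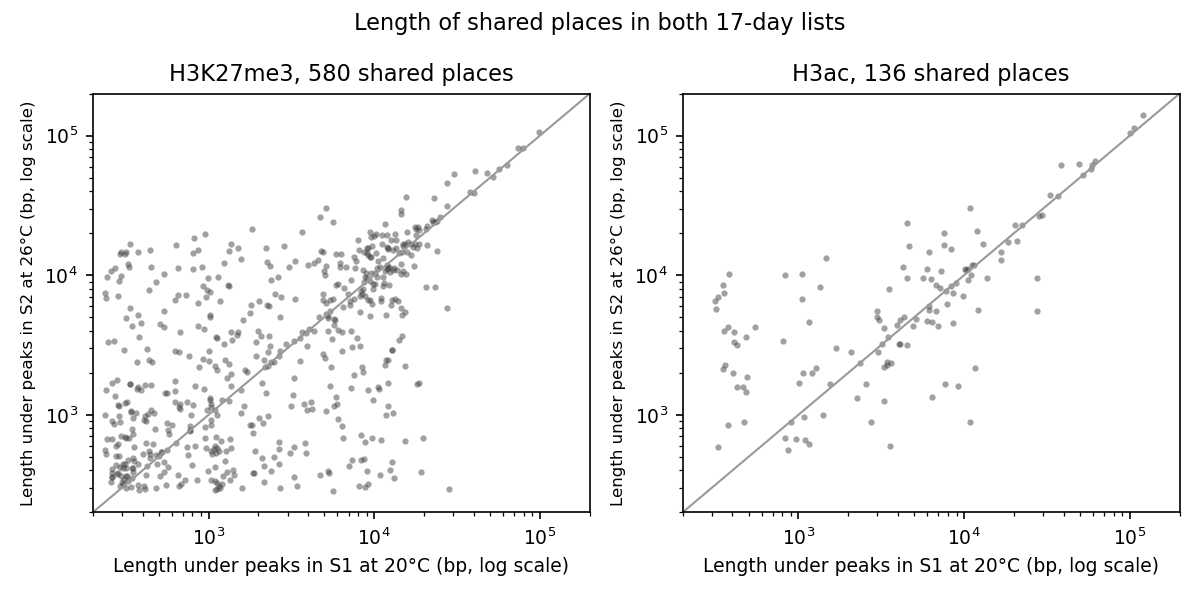
Length under peaks in bp, on log axes, in S2 at 26°C (vertical) against S1 at 20°C (horizontal) for each place with a peak in both 17-day lists, with a line of equal length. Points scatter widely on both sides of the line, long places included, with 342 of 580 H3K27me3 places and 82 of 136 H3ac places longer in S2 at 26°C.

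The longest peaks occupied common places. Each of the 3 longest peaks of all 4 lists lay to 83.9% or more under peaks of the other 17-day list of its mark. The longest H3K27me3 peak of S2 at 26°C covered chr1:22803389-22909642 (106 kb, fold enrichment 11.3), and 93.1% of it lay under 4 peaks of S1 at 20°C. It contained 1 annotated gene, which was not protein-coding. The same stretch held the longest H3ac peak of both lists, 114 kb in S2 at 26°C and 100 kb in S1 at 20°C. The next longest in S2 at 26°C lay on unplaced sequence, 81.7 kb on Chr0c07 and 81.1 kb on Chr0c01. In S1 at 20°C the peak on Chr0c07 was the longest of the list, with 79.5 kb.

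In H3ac the second longest peak of S2 at 26°C (chr6:20569900-20675610, 106 kb) lay on an array of 365 rRNA genes, and it was met by 9 peaks of S1 at 20°C. The third (chr6:20317747-20421892, 104 kb) contained no annotated gene and had a fold enrichment of 7.42, against at most 2.41 in S1 at 20°C. A cluster of rRNA genes can thus weigh on gene counts through a few peaks. Peaks within 10 kb of an rRNA gene numbered 23 in S2 at 26°C and 27 in S1 at 20°C for H3K27me3, and 10 and 29 for H3ac. Without them, 27.9% and 30.0% of the H3K27me3 length and 45.6% and 31.1% of the H3ac length was shared.

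The long H3K27me3 peaks that were not shared differed between the embryos in where else they appeared, a split made after the values were seen. Of peaks of 5000 bp or more, 176 were found in S2 at 26°C and not in S1 at 20°C, and 226 in S1 at 20°C and not in S2 at 26°C. A protein-coding gene was overlapped by 48.2% of those from S2 at 26°C (40.5% to 56.0%) and by 63.8% of those from S1 at 20°C (57.2% to 70.1%), among those on chromosomes 1 to 8. Their median fold enrichment was 3.55 and 4.15. Of the 176 from S2 at 26°C, 105 also overlapped a peak of S1 at 26°C, 55 a peak of S2 at 20°C, and 54 neither. Of the 226 from S1 at 20°C, 49 overlapped a peak of S1 at 26°C, 10 a peak of S2 at 20°C, and 171 (75.7%) neither.

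The longest of these are named here after their values were seen. In S1 at 20°C the first 3 lay on chromosome 2. The first was chr2:36497273-36517407 (20.1 kb, fold enrichment 5.11, over LOC25487132 and LOC25487133), followed by chr2:7405830-7425373 (19.5 kb, 14.2, over LOC11441339 and LOC11441883) and chr2:32923991-32943192 (19.2 kb, 5.42, over LOC25486983). In S2 at 26°C the longest was chr2:24576626-24604370 (27.7 kb, 4.05), which held no annotated gene and was covered to 94.1% in S1 at 26°C. The second lay on unplaced sequence (Chr0c02, 22.9 kb, 4.87) and was covered to 100% there, whereas the third, chr8:18323227-18341882 (18.7 kb, 4.90, over LOC120577280), had no cover in S1 at 26°C or S2 at 20°C.

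The lists of S1 at 26°C (14 days) and S2 at 20°C (26 days) each differ from a 17-day list in 1 of stage and temperature, and in age. For H3K27me3, 39.7% of the length of S2 at 26°C lay under peaks of S1 at 26°C, 29.2% under those of S2 at 20°C and 28.8% under those of S1 at 20°C. Of the length of S1 at 20°C, 31.0% lay under peaks of S2 at 26°C, the list of equal age, 27.1% under those of S1 at 26°C and 22.4% under those of S2 at 20°C. The lists of S2 at 26°C, S1 at 26°C and S1 at 20°C are of like extent (8.60, 8.57 and 8.01 Mb), whereas S2 at 20°C covers 4.82 Mb and can hold less. As a share of the joint length of a pair, the equal-age pair had 17.6%, S2 and S1 at 26°C had 24.8%, S2 at 26°C and S2 at 20°C had 23.0%, S1 at 26°C and S2 at 20°C had 18.8%, S2 and S1 at 20°C had 16.2%, and S1 at both temperatures 15.0%, so the 3 pairs with S1 at 20°C were the lowest. In peaks, 14.8% (13.8% to 15.8%) of S1 at 20°C were shared with S2 at 26°C and 14.7% (13.7% to 15.7%) with S1 at 26°C.

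For H3ac, the equal-age pair had the lowest joint share of the 6 pairs of S1 and S2 lists, 24.5%. The pairs of S1 at 20°C with S2 at 20°C and with S1 at 26°C had 25.3% and 26.3%. The pairs of S2 at 26°C with S2 at 20°C and with S1 at 26°C had 38.5% and 38.8%, and S1 at 26°C with S2 at 20°C had 42.1%, so that, as in H3K27me3, the 3 pairs with S1 at 20°C were the lowest. These pairs share lists and are not independent. Of the H3ac peaks of S2 at 26°C that had no counterpart in S1 at 20°C, 120 of 409 (29.3%) overlapped a peak of S1 at 26°C and 172 (42.1%) overlapped one of S2 at 20°C. Over all H3ac peaks of S2 at 26°C these shares were 43.0% and 53.0%. Of those of S1 at 20°C with no counterpart in S2 at 26°C, 4032 of 4300 (93.8%) overlapped neither, against 90.4% of its whole H3ac list. For H3K27me3, 84.7% of such peaks in S2 at 26°C and 90.8% in S1 at 20°C overlapped neither, against 78.8% and 81.8% of all their peaks. Lack of overlap was thus common in these whole lists.

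**Figure D4:**
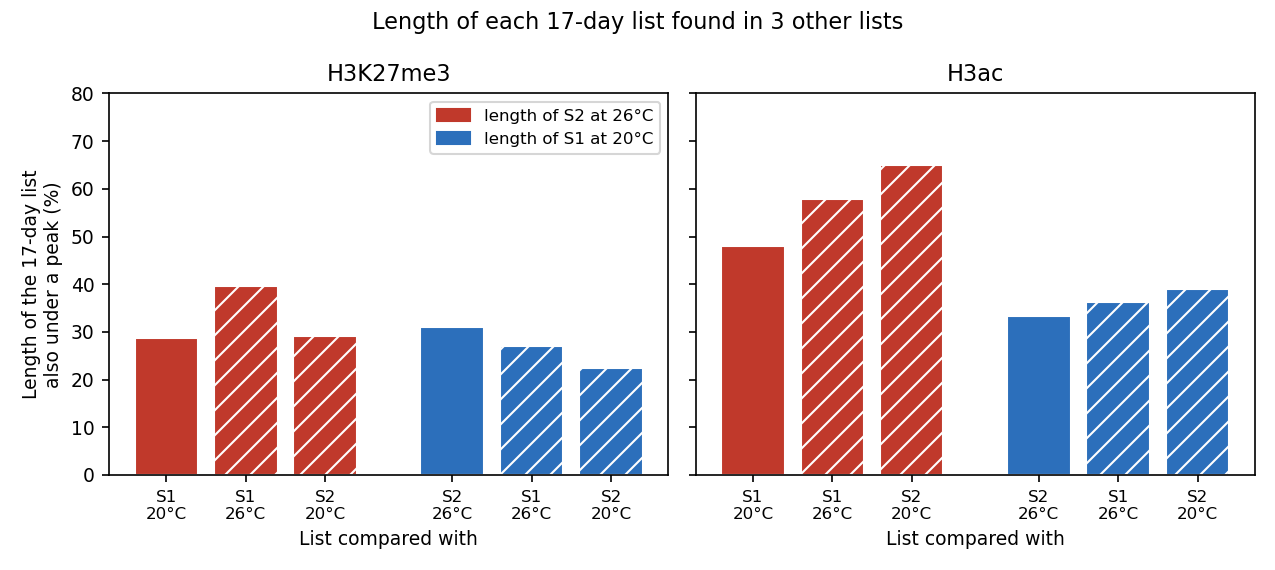
Share of the length of each 17-day list, in percent, that also lay under a peak of the other 17-day list (plain bars) and of S1 at 26°C and S2 at 20°C (hatched bars), for H3K27me3 (left) and H3ac (right). The length of S1 at 20°C in H3K27me3 is found most in S2 at 26°C, with 31.0%, whereas in H3ac the plain bar is the lowest of each set.

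Relative to genes, the H3K27me3 lists differed little. A protein-coding gene was overlapped by 35.0% of the peaks of S2 at 26°C (33.7% to 36.3%) and by 36.1% of those of S1 at 20°C (34.7% to 37.5%), with chromosomes 1 to 8 lying to 30.5% in such genes. Peaks farther than 3 kb from one made up 44.3% (43% to 45.7%) in S2 at 26°C and 40.8% (39.4% to 42.2%) in S1 at 20°C. Of chromosomes 1 to 8, 60.6% lay in such genes or within 3 kb of them. The intervals count peaks of 1 library on each side and do not cover a difference between libraries. Among peaks of 1000 bp or more, 34.7% of S2 at 26°C (32.1% to 37.4%) and 40.9% of S1 at 20°C (38% to 43.8%) overlapped a gene.

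The H3ac peaks of S2 at 26°C lay mostly away from genes. A protein-coding gene was overlapped by 8.49% of them (6.26% to 11.2%), and 84.9% lay beyond 3 kb. In S1 at 20°C 38.8% overlapped a gene (37.3% to 40.2%) and 44.7% lay beyond 3 kb. The gap lay in the shorter peaks. Of the peaks of 1000 bp or more, 7.73% of the 362 in S2 at 26°C and 14.1% of the 248 in S1 at 20°C overlapped a gene, and 86.7% and 83.5% lay beyond 3 kb. Of the shorter peaks, 10.1% of the 168 in S2 at 26°C overlapped a gene, against 40.3% of the 4128 in S1 at 20°C. These shorter peaks are not alike, as most of those of S1 at 20°C were under 500 bp and none of those of S2 at 26°C were.

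Along the chromosomes the shorter H3ac peaks, which are unlike in length, differed likewise. When the chromosomes were divided into 428 bins of 1 Mb, 13.1% were gene-poor, with under 40 protein-coding genes each. The gene-poor bins held 73.8% of the H3ac peaks of 1000 bp or more in S2 at 26°C and 63.3% of those in S1 at 20°C, and of the shorter peaks 73.2% in S2 at 26°C and 20% in S1 at 20°C. In H3K27me3 the same bins held 28.1% of the peaks of 1000 bp or more in S2 at 26°C and 22.3% in S1 at 20°C. Away from rRNA genes, 326 of the 428 bins had no H3ac peak in S2 at 26°C, whereas 0 were empty in S1 at 20°C.

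**Figure D5:**
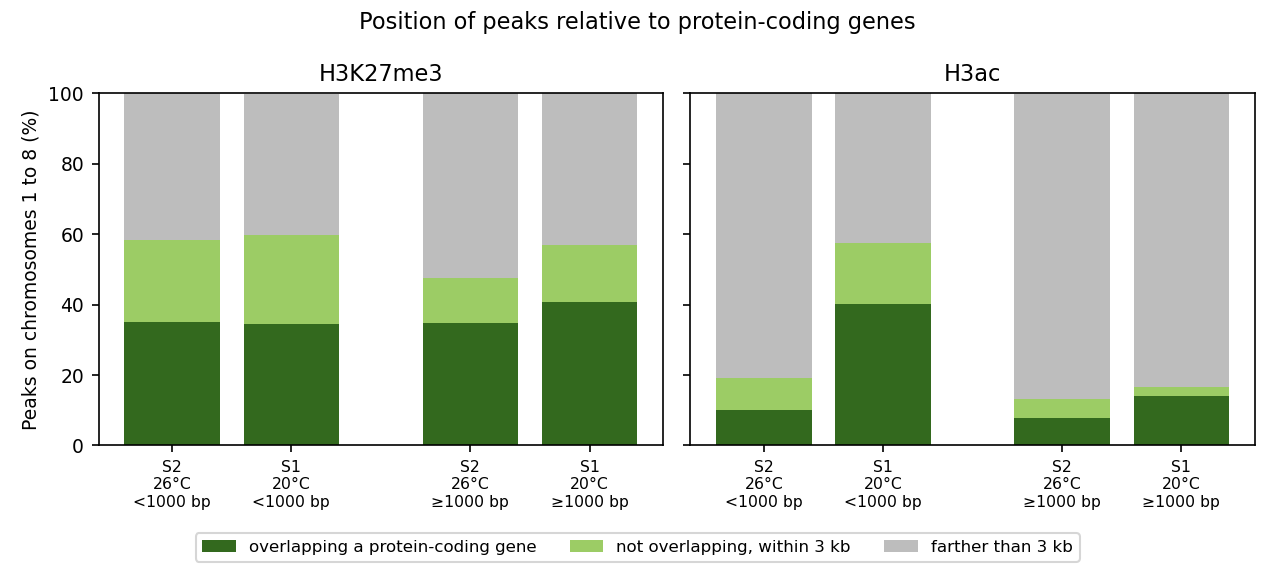
Peaks on chromosomes 1 to 8 by position relative to protein-coding genes, in percent of the peaks under 1000 bp and of 1000 bp or more, for S2 at 26°C and S1 at 20°C. Of the H3ac peaks under 1000 bp, 10.1% overlap a gene in S2 at 26°C, against 40.3% in S1 at 20°C, while the longer H3ac peaks lie mostly beyond 3 kb in both. Most of the H3ac peaks under 1000 bp in S1 at 20°C are under 500 bp, a class absent from S2 at 26°C.

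Of 31728 protein-coding genes, 1861 carried an H3K27me3 peak in S2 at 26°C and 1723 in S1 at 20°C, which is 5.87% and 5.43% of them. The genes themselves were mostly different. A peak in both was found for 291 genes (0.917%), or 15.6% of the genes of S2 at 26°C and 16.9% of those of S1 at 20°C, in S2 at 26°C only for 1570 (4.95%) and in S1 at 20°C only for 1432 (4.51%). Genes marked in both were longer, with a median of 5220 bp against 4291 bp for S2 at 26°C only, 4372 bp for S1 at 20°C only and 3099 bp for genes marked in neither, and a longer gene has more room for a peak. They were also covered to a greater part, 22.1% in S2 at 26°C and 19.8% in S1 at 20°C, than the genes of 1 list (11.1% and 10.9%). Of the 291 genes, 150 also had a peak in S1 at 26°C and 70 in S2 at 20°C. Of the 1570 genes of S2 at 26°C only, 284 (18.1%) also had one in S1 at 26°C, and of the 1432 of S1 at 20°C only, 157 (11.0%) did, against 5.09% of the genes with H3K27me3 in neither. With a fold enrichment of at least 3 the totals were 1675 in S2 at 26°C and 1697 in S1 at 20°C, so that their order turned.

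The gene table used here gives positions, symbols and gene types but no products, so the following genes are named by symbol and place without a function. Those with the highest fold enrichment in both H3K27me3 lists lay in domains of more than 11 kb. LOC25480982 (chr2:25661300-25667323) had a fold enrichment of 10.8 in S2 at 26°C, under a peak of 26089 bp, and of 12.1 in S1 at 20°C, under a peak of 24125 bp. LOC11408546 and LOC11409848 (chr5:12944341-12954633 and chr5:12938157-12942291) lay under 1 peak with 46.3 in S2 at 26°C and 10.2 in S1 at 20°C. This pair was at 45.5 in S1 at 26°C and 16.5 in S2 at 20°C, and LOC25491440 (chr4:4116645-4117554), covered to 100%, was at 61.5 in S2 at 26°C, 9.50 in S1 at 20°C, 61.7 in S1 at 26°C and 12.1 in S2 at 20°C. At both places the 26°C lists thus held the higher values. LOC120579961 on chromosome 4 and LOC11428264 on chromosome 3 were lower in S2 at 26°C, with 8.74 and 8.69 against 15.4 and 16.1 in S1 at 20°C. They were at 3.47 and 3.45 in S1 at 26°C and had no peak in S2 at 20°C. The part of temperature or stage in any of these values was not tested.

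Genes of 1 H3K27me3 list only, with no peak of the other in the gene or within 3 kb, were then ranked by fold enrichment. S2 at 26°C had 1440 such genes (4.54%), and 1339 (4.22%) were found on the side of S1 at 20°C. In S2 at 26°C the first 5 were LOC11423131 (chr1:36200335-36205644, fold enrichment 25.2), LOC120576979 on chromosome 7 (23.8), LOC112421269 on chromosome 1 (14.4), LOC11437611 on chromosome 8 (12.9) and LOC11433451 on chromosome 2 (11.3). Their peaks were 286 to 474 bp long and covered 0.508% to 20.6% of the gene. These few do not stand for their class, in which 219 of the 1570 genes of S2 at 26°C only and 241 of the 1432 of S1 at 20°C only were covered to at least 0.5 of their length. None of the 5 had an H3K27me3 peak in S1 at 26°C, and LOC120576979 alone had one in S2 at 20°C (4.10).

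In S1 at 20°C the first 5 places were genes under long domains. The first was a peak of 9683 bp with a fold enrichment of 19.5 over LOC25493109 and LOC25493110 (chr4:43043408-43053884). The table places LOC25493110 inside LOC25493109, so 1 peak stands for both. It was followed by the place of LOC11441339 and LOC11441883 on chromosome 2 (19544 bp, 14.2), that of LOC11445153 and LOC11446954 on chromosome 4 (12616 bp, 12.5), that of LOC11423377 and LOC11433542 on chromosome 3 (13396 bp, 12.1) and that of LOC11429941 and LOC25495013 on chromosome 5 (20587 bp, 12.0). Of these genes LOC11441883 and LOC11445153 had weaker peaks in S1 at 26°C, with 4.01 and 3.16, and none of the 10 had one in S2 at 20°C. The first 3 domains had no peak of S2 at 26°C under them. The domain on chromosome 3 was met by a peak of 6749 bp in S2 at 26°C (fold enrichment 3.00), which covered 50.4% of it, and that on chromosome 5 by a peak of 8281 bp (3.89), which covered 40.2%, so that these were shared places in which the genes named lay outside the peak of S2 at 26°C.

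H3ac lay on far fewer genes in S2 at 26°C than in S1 at 20°C, and here S1 at 20°C stood apart from the other lists. Its INPUT library was also the deepest and its IP library the shallowest for H3ac, and the part of depth was not tested. Of the protein-coding genes, 40 (0.126%) carried a peak in S2 at 26°C and 1647 (5.19%) in S1 at 20°C, while 66 did in S1 at 26°C and 54 in S2 at 20°C. A peak in both was found for 9 (0.0284%), in S2 at 26°C only for 31 (0.0977%) and in S1 at 20°C only for 1638 (5.16%). The log2 ratio of S2 at 26°C to S1 at 20°C was −5.36, and −2.88 with the strongest 570 peaks of each list (40 against 295 genes). Of the 1638 genes of S1 at 20°C only, 25 (1.53%) had an H3ac peak in S1 at 26°C and 16 (0.977%) in S2 at 20°C, against 0.106% and 0.0965% of the genes with H3ac in neither 17-day list.

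With no H3ac peak of the other list within 3 kb, S2 at 26°C had 29 genes (0.0914%), while S1 at 20°C had 1636 (5.16%). The genes and not always the places lacked a counterpart. The strongest of S2 at 26°C were LOC11441954 and LOC120580077 (chr4:12728713-12730186 and chr4:12707243-12709478), under 1 peak of 23770 bp with a fold enrichment of 19.3. Elsewhere this peak was met by 3 peaks of S1 at 20°C (fold enrichment up to 2.84), which covered 19.0% of it. They also carried H3K27me3, with 13.2 in S2 at 26°C and 7.88 in S1 at 20°C. The next were LOC120580075 on chromosome 4 (7.14), a place of 15318 bp on chromosome 3 with LOC11413403, LOC120579495 and LOC120579655 (7.09), LOC112418360 on chromosome 6 (5.68) and LOC120579914 on chromosome 4 (5.10). The place on chromosome 3 was covered to 11.4% by 2 peaks of S1 at 20°C (up to 4.66), and the peaks of the other 3 genes were met by none. LOC112418360 had higher H3ac values in S1 at 26°C (6.1) and S2 at 20°C (8.81), and LOC120579914 had 3.51 and 3.42 there. The other genes named so far for H3ac in S2 at 26°C had no H3ac peak in those lists. All genes named so far for H3ac in S2 at 26°C also had an H3K27me3 peak in S2 at 26°C, with a fold enrichment of 3.00 to 13.2. Over all 40 H3ac genes of S2 at 26°C, 26 did (65%, 48.3% to 79.4%), against 5.87% of all protein-coding genes. Some of the 40 lie together under 1 peak, so they are not independent, and the interval takes them as if they were. Of the H3ac peaks of 1000 bp or more in S2 at 26°C, in genes or not, 28.5% overlapped H3K27me3 of the same embryos. In S1 at 20°C the strongest were LOC11438062 on chromosome 3 (10.1), LOC25501409 on chromosome 8 (9.84), LOC25499015 on chromosome 7 (9.66), LOC11429848 on chromosome 5 (9.43) and LOC11445499 on chromosome 1 (9.43), under peaks of 353 to 835 bp. None of these 5 had an H3K27me3 peak in S1 at 20°C, and LOC11438062 had one in S2 at 26°C.

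Of the 9 genes with H3ac in both lists, the first 5 by the lower value were LOC112418186 on chromosome 4, with 5.18 in S2 at 26°C and 4.40 in S1 at 20°C, LOC120579658 and LOC120579474 on chromosome 3 (7.09 and 3.64 in S2 at 26°C, 3.77 and 3.68 in S1 at 20°C), and LOC120575977 and LOC120576044 on chromosome 6 (3.25 and 3.64 in S2 at 26°C, 3.77 and 3.14 in S1 at 20°C). In LOC112418186 and LOC120575977 the strongest peaks of both lists, which gave these values, did not overlap each other. The 9 genes with H3ac in both lists had a median length of 27456 bp, against 3169 bp for genes with H3ac in neither list.

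Copies of rRNA genes behaved unlike protein-coding genes in both marks. H3ac was found on 516 of 1407 rRNA genes in S2 at 26°C and on 442 in S1 at 20°C, with 427 (30.3%) in both, 89 (6.33%) in S2 at 26°C only and 15 (1.07%) in S1 at 20°C only. H3K27me3 was found on 255 in S2 at 26°C and 155 in S1 at 20°C, with 122 (8.67%) in both, 133 (9.45%) in S2 at 26°C only and 33 (2.35%) in S1 at 20°C only. These genes stand in arrays under few peaks and are nearly identical, and the authors kept only reads with 1 place in the genome, so the copies are not independent and their counts are uncertain.

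Between the marks, 149 protein-coding genes had H3K27me3 in S2 at 26°C and H3ac in S1 at 20°C, which is 9.05% of the H3ac genes of S1 at 20°C (7.70% to 10.5%). Nearly as many, 152 (9.23%), had H3K27me3 in S1 at 20°C, in the same embryos as H3ac, and over all genes H3K27me3 lay on 5.87% in S2 at 26°C and 5.43% in S1 at 20°C. Of the 149, 106 (0.334% of all) were without H3K27me3 in S1 at 20°C or H3ac in S2 at 26°C. In the reverse class 14 genes had H3ac in S2 at 26°C and H3K27me3 in S1 at 20°C, and 0 of them were without H3K27me3 in S2 at 26°C and H3ac in S1 at 20°C. The 40 H3ac genes of S2 at 26°C leave little room for this class. In order of the lower of both values, whose scales differ, the first of the 106 were LOC11438062 (H3K27me3 9.56 in S2 at 26°C, H3ac 10.1 in S1 at 20°C), LOC11416432 on chromosome 8 (6.66 and 6.32), LOC25495807 on chromosome 6 (7.76 and 5.66), LOC11405810 on chromosome 5 (5.61 and 6.90) and LOC11408427 on chromosome 4 (7.15 and 5.03). By length, 38.9% of H3ac in S2 at 26°C lay under H3K27me3 of the same embryos and 24.4% in S1 at 20°C. Of the 136 places with H3ac in both 17-day lists, 45 (33.1%, 25.3% to 41.7%) overlapped a place with H3K27me3 in both, and these 45 made up 1.25 of 1.84 Mb.

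On the chromosomes 10 protein-coding genes carry a name in the table, among them the leghaemoglobin genes LB1 and LB6, the early nodulin gene ENOD11 and the symbiosis signalling genes IPD3 and CCAMK, all known from root nodules. Of these 10, 0 had a peak of either mark in a 17-day list, while 14.8% of all protein-coding genes had one in any of the 4 lists, and 10 genes are too few to be set apart from that share.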

How the data were processed

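ChIP-seq peak lists of embryos were analysed as deposited. According to their script and methods, the authors trimmed reads with Trim Galore, used STAR for mapping to MtrunA17r5.0 (uniquely placed reads), Picard and Samtools for duplicates, and MACS2 at p = 0.01 for peaks of each IP library against its INPUT. The script has the broad option for both marks, but the H3ac lists have the narrow format. Versions are not given in the sources used here. The deposited values are the fold enrichment, a ratio, the −log10 p-value and q-value, and a score, which was not used. The score follows the q-value in the broad and the p-value in the narrow lists.

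Overlaps of at least 1 bp were found with pandas 2.3.3 and NumPy 2.4.6 under Python 3.11.15, intervals with SciPy 1.17.1 and plots with matplotlib 3.10.9. The code was tested on simulated lists, and 10 of 10 quantities equalled those of bedtools 2.31.1. Genes came from the RefSeq table of the same assembly (39280 on chromosomes 1 to 8), which has no strand or product, so promoters and 14 gene lists set by product names could not be analysed. Named genes were protein-coding genes ranked by the highest fold enrichment of an overlapping peak: the first 5 places of S2 at 26°C only, of S1 at 20°C only (no peak of the other within 3 kb), of both by the lower value, and of opposite marks, with up to 3 genes a place, and the 3 longest peaks of each list. Members, lists and rules were chosen with earlier results of these data known. Alternatives were stricter lists (−log10 p from 5, q-value up to 0.05, or fold enrichment from 3), equal list sizes, chromosomes only, merging within 1 kb, no peaks within 10 kb of rRNA genes, overlaps of 200 bp or 0.5 of the peak, and all gene types.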

Additional observations from a re-analysis of the deposited data

Results flagged for a closer look

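Among the 4 H3ac lists of S1 and S2, S1 at 20°C stood far from the others in its number of peaks (4488) and of protein-coding genes with a peak (1647). Among the 4 H3K27me3 lists, S2 at 20°C, which is not of 17 days, stood far below the others in covered length (4.82 Mb). In all, 8 sets of 4 lists were checked for a list far from the rest, and chance alone gives about 1 in 20. The lists of a set are different conditions and not replicates.

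The equal-age comparison ran in opposite directions in the marks, with a log2 ratio of peak number of S2 at 26°C to S1 at 20°C of 0.16 in H3K27me3 and −2.98 in H3ac. The H3K27me3 ratio was 0.70 with −log10 p of at least 5 and 0.01 with a fold enrichment of at least 3. The difference between the marks was not tested, as there was 1 list on each side.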

How the results depend on the processing

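No paired analysis was possible because each condition had 1 library, and no library could be left out. Of 66 alternative values, 46 stayed within the interval of a share or within 1.5 times of a ratio, 19 moved and 1 changed sign. The ratio of protein-coding genes with H3K27me3 became −0.02 with a fold enrichment of at least 3. With −log10 p from 5 upwards, the shared H3K27me3 peaks were 7.25% of S2 at 26°C and 13.7% of S1 at 20°C, the shared H3ac peaks of S1 at 20°C 6.14% and the H3ac gene ratio −4.42. With a fold enrichment of at least 3, the shared H3K27me3 peaks of S1 at 20°C were 11.5%, and the shared H3ac peaks 21.5% of S2 at 26°C and 2.28% of S1 at 20°C. An overlap of 200 bp gave 10.5% and 13.6% for H3K27me3, and 0.5 of the peak gave 6.99% and 10.5%, and 18.1% and 3.39% for H3ac (S2 at 26°C and S1 at 20°C in each pair). On chromosomes 1 to 8 only, 13.6% of the H3K27me3 peaks of S1 at 20°C were shared, and after merging within 1 kb 3.47% of its H3ac peaks. Equal list sizes, which fix the ratio of peak number by construction, gave shared H3ac peaks of 10.9% and 10.5% and an H3ac gene ratio of −2.88. With all gene types that ratio was −1.85. The covered length of H3ac (log2 ratio −0.53) became 0.08 when −log10 p started from 5 and 0.94 with equal list sizes. The limit on p left 2523 H3K27me3 peaks in S2 at 26°C and 1552 in S1 at 20°C, on 1021 and 728 protein-coding genes, and H3ac on 22 and 472 genes. The cause was not tested in these cases. Peaks below the threshold of the lists could not be seen.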

Other observations

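Outside the chromosomes, H3K27me3 peaks on the mitochondrial sequence numbered 17 in S2 at 26°C and 51 in S1 at 20°C, and on the plastid sequence 11 and 1. H3ac peaks there numbered 0 and 18, and 7 and 2. Organelle DNA carries no histones. Among other gene types, H3K27me3 lay on 9.54% of 1562 pseudogenes in S2 at 26°C and 5.38% in S1 at 20°C (32 in both), on 3.83% and 3.36% of 2561 lncRNA genes (25 in both), on 3.81% and 3.91% of 971 snoRNA genes (6 in both) and on 3.62% and 2.41% of 746 tRNA genes (9 in both), against 6.20% and 5.38% of all genes. H3ac lay on 3.39% and 6.27% of pseudogenes, with 36 in both, and on 0.312% and 2.23% of lncRNA genes, with 4 in both, against 1.61% and 5.78% of all genes. Of the 632 genes of any type with H3ac in S2 at 26°C, 516 were rRNA genes. For protein-coding genes the shares were 0.126% in S2 at 26°C and 5.19% in S1 at 20°C.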
